A study of Mus musculus with 121 samples.

Results

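The genes described here are 10 genes of the choroid plexus, Ttr, Otx2, Kl, Sostdc1, Folr1, Aqp1, Clic6, Kcne2, Kcnj13 and Tmem72, out of 24412 genes in the count table. They were chosen by name, and each symbol matched 1 gene of the table. The choroid plexus is a vascular fold covered by a secretory epithelium that hangs into the ventricles of the brain and makes cerebrospinal fluid. Its epithelial cells release carrier proteins such as transthyretin, move ions, water and vitamins between blood and fluid, and hold a characteristic set of channels and receptors on the face toward the ventricle. The lateral ventricle, which holds choroid plexus, borders the striatum.

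Messenger RNA was sequenced from the prefrontal cortex (PFC), striatum (STR) and substantia nigra (SN) of adult male mice that carry a conditional allele of Gdnf, the gene of a neurotrophic factor for dopamine neurons. Cre recombinase acts on this allele, called cHyper here and cKU in the sample labels, to raise Gdnf expression from its own locus, and the study asked what a higher endogenous level does to gene expression in the brain. All mice had a mixed 129Ola/ICR/C57bl6 background, and wild-type littermates served as controls. Regions were cut from 2-mm slices of the brain, so each library is a bulk sample of whatever tissue the piece held.

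In the Nestin-Cre model, Cre was expressed from the Nestin promoter in the central nervous system, and mice were sampled at 2 months of age by the sample labels (2 to 3 months for STR and SN in the text of the study). In the AAV-Cre model, an adeno-associated virus carrying Cre was injected into the striatum on both sides at 3 to 5 months of age, in WT controls as well, and mice were sampled at 5 to 7 months. WT mice carried no cHyper allele (wt/wt), HET mice carried it beside a wild-type allele (wt/cHyper), and HOM mice had cHyper/cHyper. The libraries came from 21 Nestin-Cre and 22 AAV-Cre mice, named M and their number. Nestin-Cre groups held 8 WT, 6 HET and 4 HOM libraries in PFC, 6, 7 and 6 in STR, and 6, 7 and 6 in SN. AAV-Cre groups held 7 WT, 7 HET and 8 HOM libraries in PFC, 7, 7 and 7 in STR, and 7, 7 and 8 in SN. Total counts per library ran from 9869584 in an AAV-Cre PFC HET library to 26750905 in a Nestin-Cre PFC HET library. Group medians of total counts lay between 13456979 in AAV-Cre PFC HOM and 20090039 in AAV-Cre SN HET. For M4575 the labels disagree, with WT given for the PFC library and HOM for those of STR and SN, and they were used as given.

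Gdnf itself (Entrez 14573, chr15:7810048-7837580, mm10) was a low gene. In Nestin-Cre STR its lowest, median and highest levels were 3.88, 5.98 and 7.21 cpm (counts scaled to 1000000 per library) in WT, 4.04, 5.67 and 9.05 in HET and 5.79, 6.65 and 9.59 in HOM libraries. In AAV-Cre STR they were 5.45, 6.74 and 7.45 in WT, 6.46, 7.37 and 9.42 in HET and 7.71, 8.67 and 9.98 in HOM libraries. All 7 HOM libraries of AAV-Cre STR thus lay above all 7 WT libraries, whereas the genotypes of Nestin-Cre STR overlapped. The log2 fold change of HOM against WT was 0.40 ± 0.09 (SE, n = 7 and 7, adjusted p = 0.504) in AAV-Cre STR and 0.28 ± 0.19 (n = 6 and 6, adjusted p = 0.784) in Nestin-Cre STR, and neither passed the test over all genes. For HET the values were 0.20 ± 0.09 (adjusted p = 1) and 0.07 ± 0.19 (adjusted p = 0.85). In PFC the lowest, median and highest levels in WT, HET and HOM were 0.198, 0.392 and 0.884, 0.126, 0.355 and 0.898, and 0.0893, 0.133 and 0.626 cpm in Nestin-Cre mice. In AAV-Cre PFC they were 0.294, 1.02 and 1.15, 0.299, 1.19 and 1.60, and 0.352, 0.710 and 1.54 cpm. The genotypes overlapped in PFC, and in AAV-Cre PFC the log2 fold changes were 0.30 ± 0.38 (adjusted p = 0.773) in HET and 0.12 ± 0.37 (adjusted p = 0.912) in HOM. In Nestin-Cre SN the levels were 0.287, 0.452 and 0.521, 0.299, 0.526 and 1.66, and 0.379, 0.705 and 0.936 cpm in WT, HET and HOM. AAV-Cre SN had 0.101, 0.232 and 1.07, 0.249, 0.404 and 0.898, and 0.178, 0.473 and 0.889 cpm. The genotypes overlapped in SN too, and Gdnf fell below the filter on low counts in Nestin-Cre PFC and in SN of both models. The study measured striatal Gdnf mRNA by quantitative PCR and reported a rise in both models. By its design, the mRNA of the recombined allele carries a shorter untranslated end. How far counts over the annotated exons of Gdnf (4867 bases) follow that rise was not tested.

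The regions could be told apart by their own markers in every library. The summed level of 7 cortical excitatory genes, of which Slc17a7 was the most abundant in PFC, was 1719 to 2236 cpm in PFC and at most 529 cpm elsewhere. The 8 striatal neuron genes together, led by Ppp1r1b and Penk, stood at 5911 to 10892 cpm in STR against at most 1487 cpm in the other regions. The 7 dopamine neuron genes, led by Slc6a3, gave 1810 to 6130 cpm in SN and at most 121.2 cpm in PFC and STR. No library therefore went against its region label.

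In 9 libraries the 10 genes together exceeded 1000 cpm. These libraries were set apart after the values were seen, by that sum, so their high level of the 10 genes is not a finding of its own. The lowest sum among them was 1231 cpm, and the highest sum among the other 112 libraries was 319 cpm. There were 7 such libraries among the 40 of STR, 1 among the 41 of SN and 1 among the 40 of PFC. The AAV-Cre model had 8 of them and the Nestin-Cre model 1. In AAV-Cre STR 2 libraries of each genotype were among them, M3585 and M3588 (WT), M3610 and M3750 (HET), and M3607 and M3690 (HOM). The other 3 were the SN and the PFC of M3676 (AAV-Cre HET) and the STR of M4566 (Nestin-Cre HET). Fits without these libraries were added after the values were seen and are given beside those with all libraries.

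Transthyretin (Ttr, Entrez 22139, chr18:20665250-20674326), the secreted carrier of thyroid hormone and retinol, held most of the sum. It stood at 20041 cpm in the SN of M3676 and at 18404 cpm in the STR of M4566. These are 2.00% (Wilson 95% interval 2.00 to 2.01) and 1.84% (1.83 to 1.85) of all counts of the library, with intervals that cover counting error only. In AAV-Cre STR the values were 7671 cpm in M3585, 6563 in M3610, 6157 in M3690, 5441 in M3588, 4908 in M3750 and 4650 in M3607. The PFC of M3676 had 1145 cpm. The highest Ttr level in any other library of the series was 260 cpm, so no library lay between 260 and 1145 cpm.

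**Figure D1:**
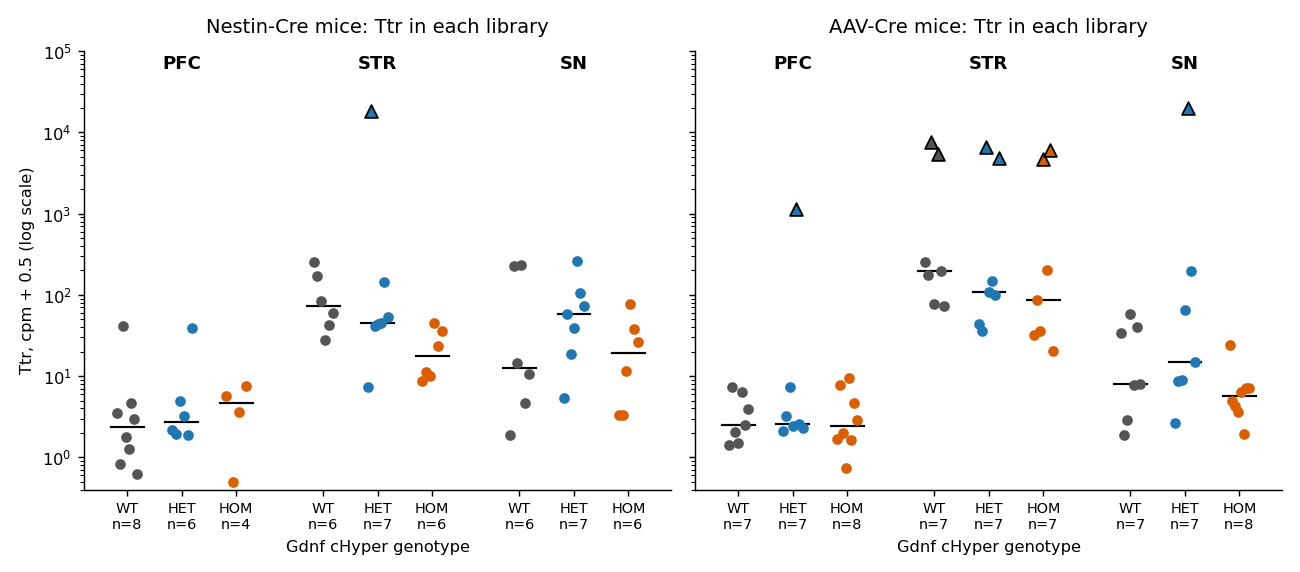
Ttr level of each library, as cpm + 0.5 on a logarithmic axis, by region and Gdnf genotype in Nestin-Cre mice (left) and AAV-Cre mice (right), with horizontal lines at the group medians. Triangles mark the 9 libraries in which the 10 genes together exceed 1000 cpm, with Ttr from 1145 to 20041 cpm, above a highest value of 260 cpm elsewhere.

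Of the 8 mice with such a library, M3676 had 2, in SN and PFC, and the other 7 had 1 each. M4566, the Nestin-Cre mouse with 18404 cpm in STR, had 58.1 cpm of Ttr in SN, rank 7 of 19, and 1.46 cpm in PFC, rank 12 of 18. M3676 had 148 cpm in STR, rank 11 of 21. Among the 6 mice high in AAV-Cre STR, Ttr in SN ran from 2.38 cpm in M3585 to 14.3 cpm in M3750, and in PFC from 0.244 cpm in M3607 to 6.79 cpm in M3610. M3607, with 4650 cpm in STR, had the lowest PFC value of all 22 AAV-Cre mice.

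All 10 genes were high in these libraries, with 1 exception. Set against the other libraries of the same model and region, 9 of the 10 genes were above every other library in all 9, and Aqp1 was so in 8. Among all genes that reached 1 cpm in 3 or more libraries, 66 of 15675 (0.421%) were above every other library in all 9, and 252 (1.61%) in at least 8. Since the genes themselves set these libraries apart, their own count is fixed by the choice. The 28 other choroid plexus genes were not used for it: 16 of them were above in all 9 and 26 in at least 8. Enpp2, whose product makes lysophosphatidic acid, was the most abundant of the 28, at 709 to 6876 cpm in the 9 libraries. The next 4 by mean level were Igf2 at 75.2 to 755 cpm, Car12 at 35.4 to 196 cpm, Igfbp2 at 34.7 to 212 cpm and Ace at 29.1 to 260 cpm. Of these 5, Enpp2, Car12 and Ace were above every other library in all 9, and Igf2 and Igfbp2 in 8.

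The summed level of the 28 other choroid plexus genes followed the same libraries. It was 10232 cpm in the SN of M3676 against 721 to 1374 cpm in the other AAV-Cre SN libraries. The STR of M4566 had 5330 cpm, where the other Nestin-Cre STR libraries had 392 to 667 cpm. In AAV-Cre STR the 6 libraries had 2457 cpm (M3588) to 4992 cpm (M3585), and the others 542 to 782 cpm. In the PFC of M3676 the sum was 1074 cpm against 467 to 564 cpm. In every one of the 9 libraries the sum thus lay above that of all others, and Enpp2 held the largest part.

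Markers of tissues that border the choroid plexus were measured in the same libraries. The 9 genes in the table from a list for the ependyma, the ventricle lining (Foxj1, Ccdc153, Tmem212, Rarres2, Dynlrb2, Mia, Cfap126, Tekt1 and Ak7), summed to 88.9 cpm in the SN of M3676 against 18.3 to 31.6 cpm in the other AAV-Cre SN libraries. In the 6 AAV-Cre STR libraries they summed to 64.8 to 87.2 cpm against 34.8 to 78.5 cpm, with M3690 (82.8) and M3585 (87.2) above the others. The STR of M4566 (80.2 cpm) and the PFC of M3676 (16.3 cpm) lay within the ranges of the other libraries, 9.07 to 139 and 8.59 to 24.2 cpm. None of the 9 genes was above every other library in all 9, and Mia alone was so in at least 8.

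The 10 leptomeningeal genes, fibroblast genes of the membranes around the brain led by Dcn, Col1a2 and Fmod, summed to 43.2 to 56.4 cpm in the 6 AAV-Cre STR libraries against 24.7 to 49.6 cpm, with 3 of the 6 (M3585, M3588 and M3610) above the others. They summed to 119 cpm in the SN of M3676 (others 50.3 to 387), 90.5 cpm in its PFC, below all others (94.3 to 178), and 64.3 cpm in the STR of M4566 (others 25.8 to 99.0). The 8 endothelial genes, led by Slco1a4, Itm2a and Flt1, summed to 240 to 274 cpm in the 6 AAV-Cre STR libraries against 189 to 276 cpm. They were also within the range of the others in the SN of M3676 (305 cpm, others 280 to 409), in its PFC (222 cpm, others 219 to 344) and in M4566 (188 cpm, others 155 to 291). Neither list had a gene above every other library in all 9. The 4 blood genes, led by Alas2, summed to 2.53 to 4.78 cpm in the 6 AAV-Cre STR libraries against 1.13 to 4.04 cpm, with M3610 (4.78) and M3588 (4.21) above the others. They were within the range of the others in M4566 (2.59 cpm, others 1.04 to 4.92) and in the SN (5.67 cpm, others 3.00 to 12.0) and PFC (4.23 cpm, others 2.97 to 10.4) of M3676. Hba-a1 and Hbb-bs had no count in any library of the series. Striatal neuron genes stood at 6431 to 7758 cpm in the 6 AAV-Cre STR libraries (others 6141 to 8125) and at 6306 cpm in M4566 (others 5911 to 10892), within the range of the region. The cortical genes in the PFC of M3676 (1925 cpm, others 1719 to 2236) and the dopamine neuron genes in its SN (4046 cpm, others 2384 to 6130) were also within range. In a bulk library, more choroid plexus cells and more RNA of these genes per cell cannot be told apart. The part of these other tissues in the levels of the 10 genes was not tested.

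The mix of the 10 genes was compared between the 9 libraries by dividing each gene's excess over the median of the other libraries by the excess of Ttr. For every 1000 cpm of Ttr, the excess of Otx2 was 2.12 to 3.84 cpm, that of Kcne2 2.62 to 4.53 cpm, that of Sostdc1 3.84 to 6.42 cpm and that of Kcnj13 4.502 to 7.87 cpm. These 4 genes kept within 1.81-fold over libraries whose Ttr levels spanned 1145 to 20041 cpm. Aqp1 ran from 2.16 to 5.28 cpm, Folr1 from 1.78 to 6.72 cpm, Kl from 8.83 to 34.3 cpm, Clic6 from 3.04 to 18.9 cpm and Tmem72 from 1.02 to 6.49 cpm. The wide ranges of the last 4 rested on M3588 and M4566. Without both, Folr1 ran from 5.41 to 6.72, Kl from 23.0 to 34.3, Clic6 from 12.0 to 18.9 and Tmem72 from 3.69 to 6.49 cpm per 1000 cpm of Ttr. M3588 had less Kl, Clic6 and Tmem72 for its Ttr (8.83, 3.04 and 1.52 cpm), and M4566 less Kl, Clic6, Folr1 and Tmem72 (14.0, 6.34, 1.78 and 1.02 cpm). M4566 was also the lowest of the 9 libraries for Otx2 (2.12), Aqp1 (2.16), Kcne2 (2.62), Sostdc1 (3.84) and Kcnj13 (4.502). M3588 was next lowest for Otx2 (2.13), Aqp1 (2.34), Kcne2 (3.02) and Sostdc1 (3.96). The narrower ranges thus had their lower ends in the same mouse, M4566. These 2 mice were named after their values were seen.

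**Figure D2:**
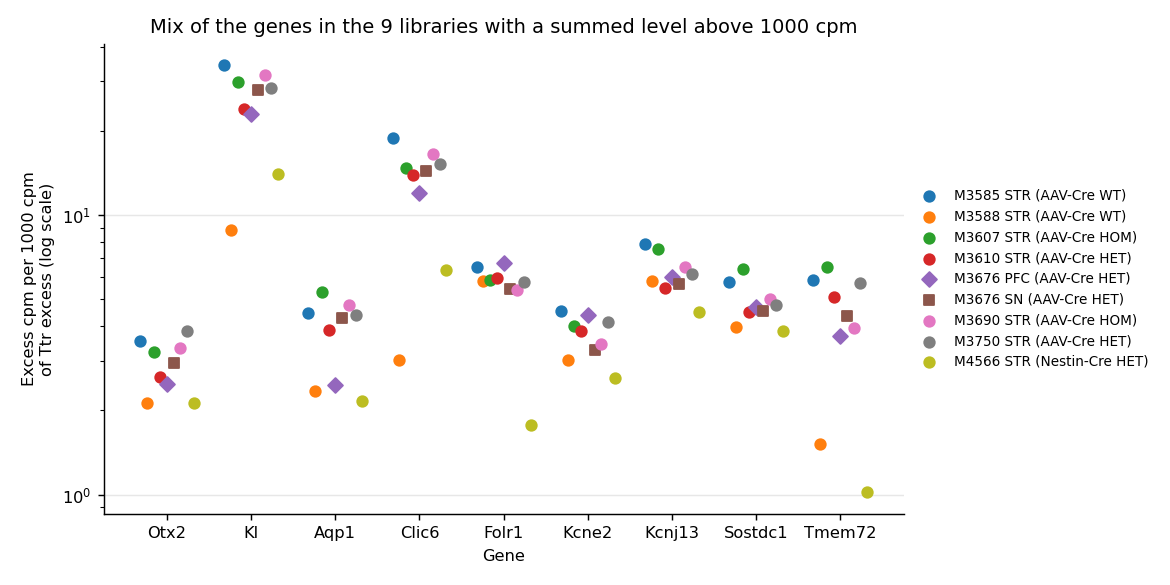
Excess of 9 genes over the median of the other libraries of the same model and region, in cpm per 1000 cpm of the excess of Ttr, on a logarithmic axis. Each point is 1 of the 9 libraries with a summed level above 1000 cpm, and M3588 and M4566 lie lowest for Kl at 8.83 and 14.0 and for Tmem72 at 1.52 and 1.02.

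Per kilobase of annotated exon length, Ttr was highest in all 9 libraries, at 938 to 16414 cpm per kb. Kl was the next highest in 8 of the 9. In the SN of M3676 the order after Ttr was Kl (110 cpm per kb), Clic6 (79.7), Folr1 (78.0), Sostdc1 (52.7), Kcne2 (38.9), Kcnj13 (37.4), Aqp1 (31.2), Tmem72 (26.4) and Otx2 (24.98). Otx2 or Tmem72 was last in each of the 9 libraries. Neighbours such as Clic6 and Folr1, or Kcne2 and Kcnj13, changed places between libraries.

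In the 112 other libraries the order per length differed by region and by model. In PFC of Nestin-Cre mice (18 libraries) the median of Ttr was 2.13 cpm per kb, followed by Aqp1 at 0.862, Kl at 0.717, Kcnj13 at 0.532 and Clic6 at 0.307. In PFC of AAV-Cre mice (21 libraries) Ttr at 1.65 cpm per kb was followed by Clic6 at 0.956, Kl at 0.765, Kcnj13 at 0.528 and Aqp1 at 0.429. In STR the first 3 were Ttr, Clic6 and Kl in both models, at 35.01, 6.21 and 1.26 cpm per kb in Nestin-Cre (18 libraries) and 69.9, 7.56 and 1.65 cpm per kb in AAV-Cre mice (15 libraries). In SN of Nestin-Cre mice (19 libraries) the order was Ttr at 21.3, Otx2 at 3.24, Kl at 2.48 and Clic6 at 1.90 cpm per kb, and in SN of AAV-Cre mice (21 libraries) Ttr at 6.04, Otx2 at 2.91, Clic6 at 2.83 and Kl at 0.815 cpm per kb. Interquartile ranges of the neighbours named overlapped in PFC of both models. They also overlapped from Otx2 to Clic6 in Nestin-Cre SN and from Ttr to Clic6 in AAV-Cre SN. These genes were measured in the same libraries, and their differences within libraries were not tested. The overlap therefore does not show that neighbours were alike. In STR the ranges of Ttr, Clic6 and Kl lay apart from each other and from those of the other genes in both models, while those of Otx2, Folr1 and Sostdc1 overlapped. Counts of 0 occurred in these libraries for Kcne2 in 19, Tmem72 in 11, Folr1 in 6, and Ttr and Aqp1 in 1 library each. The library without a Ttr read was the PFC of M4568, where 3 counts would have been 0.189 cpm. For Kcne2 the level of 3 counts lay between 0.116 and 0.304 cpm, so its absence in PFC is not shown at this depth.

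The levels of Ttr differed between regions. In Nestin-Cre mice its lowest, median and highest levels in the other libraries were 0, 2.60 and 41.4 cpm in PFC, 6.90, 42.7 and 252 cpm in STR, and 1.36, 26.1 and 260 cpm in SN. In AAV-Cre mice they were 0.244, 2.01 and 9.08 cpm in PFC, 19.6, 85.4 and 251 cpm in STR, and 1.38, 7.37 and 197 cpm in SN. PFC and STR did not overlap in AAV-Cre mice, while in Nestin-Cre mice the PFC of M4394 (WT, 41.4 cpm), M4606 (HET, 38.6 cpm) and M4580 (HOM, 7.10 cpm) reached into the STR range. In the fit of the 3 regions Ttr was higher in STR than in PFC, with a log2 fold change of 5.68 ± 1.06 (n = 19 and 18, adjusted p = 4.00e-06) in Nestin-Cre and 8.47 ± 1.24 (n = 21 and 22, adjusted p = 1.05e-08) in AAV-Cre mice. Without the 9 libraries these values were 3.16 ± 0.61 and 5.00 ± 0.51 and both still passed. Between SN and PFC the values were 3.25 ± 0.90 (adjusted p = 0.00101) and 2.94 ± 1.06 (adjusted p = 0.00948), and 3.13 ± 0.61 and 2.59 ± 0.51 without the 9 libraries.

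Against STR, Ttr in SN was lower, by a log2 fold change of -2.43 ± 0.95 (adjusted p = 0.0168) in Nestin-Cre and -5.53 ± 1.21 (adjusted p = 3.43e-05) in AAV-Cre mice. In Nestin-Cre mice this rested on M4566, since without it the value was -0.03 ± 0.53 (adjusted p = 0.961). Ttr also lost this call with the mouse as a replicate block, at -0.87 ± 0.57 (adjusted p = 0.157). In AAV-Cre mice the lower level of Ttr in SN held without the 9 libraries, at -2.41 ± 0.42 (adjusted p = 7.92e-07).

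The homeobox transcription factor Otx2 (Entrez 18424, chr14:48657677-48667644), which specifies choroid plexus and also acts in midbrain neurons, followed another pattern. Its lowest, median and highest levels in SN were 6.27, 8.67 and 10.5 cpm in Nestin-Cre and 5.43, 7.79 and 11.5 cpm in AAV-Cre mice, the 9 libraries left out. In STR they were 0.0647, 1.48 and 8.96 cpm and 0.921, 1.37 and 3.17 cpm, and in PFC 0.0660, 0.307 and 0.857 cpm and 0.0826, 0.372 and 0.667 cpm. The SN libraries thus stayed within 2.11-fold of each other and lay above all of PFC, and above all of STR but M4564 (8.96 cpm). Otx2 was higher in SN than in PFC by a log2 fold change of 4.59 ± 0.47 (adjusted p = 3.39e-13) in Nestin-Cre and 4.27 ± 0.47 (adjusted p = 1.16e-12) in AAV-Cre mice. Leaving out the 9 libraries gave 4.53 ± 0.31 and 4.35 ± 0.15.

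Between SN and STR, Otx2 was higher in SN at 1.43 ± 0.37 (adjusted p = 0.000426) in Nestin-Cre mice, and at 0.48 ± 0.35 (adjusted p = 0.203) it did not pass in AAV-Cre mice. With the 9 left out Otx2 passed in both models, at 2.13 ± 0.25 (adjusted p = 6.10e-11) and 2.18 ± 0.13 (adjusted p = 3.76e-23). With the mouse as a replicate block the AAV-Cre value of Otx2 was 1.06 ± 0.29 (adjusted p = 0.000884). Within SN the level of Otx2 did not follow that of Ttr: over the 40 other SN libraries, with group means removed, Pearson's r was 0.0124. For Kcne2 and Ttr in the same libraries r was 0.755.

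M4564, the STR library of a Nestin-Cre HET mouse with 8.96 cpm of Otx2, had the lowest Ttr of its region and model (6.90 cpm). Its Sostdc1 (4.18 cpm) and Folr1 (1.86 cpm) were the highest of the Nestin-Cre STR libraries other than M4566, and its Kcnj13 (0.0663 cpm) the second lowest. The high Otx2 of this library therefore stood without a high Ttr.

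Kl (Entrez 16591, chr5:150952607-150993817) encodes Klotho, a co-receptor for fibroblast growth factor 23 that is also shed into the fluid. In the other libraries its lowest, median and highest levels were 2.16, 3.67 and 5.34 cpm in PFC, 3.49, 6.42 and 12.7 cpm in STR, and 3.49, 12.7 and 26.9 cpm in SN of Nestin-Cre mice. In AAV-Cre mice they were 1.79, 3.92 and 5.21 cpm, 5.29, 8.43 and 20.6 cpm, and 2.199, 4.17 and 11.1 cpm. SN had the highest median in the younger Nestin-Cre mice and STR in AAV-Cre mice, with overlapping ranges. Kl was higher in SN than in PFC at 1.54 ± 0.41 (log2 fold change, adjusted p = 0.000664) in Nestin-Cre and 1.83 ± 0.68 (adjusted p = 0.0118) in AAV-Cre mice, and at 1.56 ± 0.20 and 0.45 ± 0.19 without the 9 libraries. Between SN and STR it was at -0.43 ± 0.39 (adjusted p = 0.307) in Nestin-Cre mice, and without M4566 it passed in the other direction, at 0.64 ± 0.19 (adjusted p = 0.00236). In AAV-Cre mice Kl was lower in SN with and without the 9 libraries, at -1.89 ± 0.62 (adjusted p = 0.00432) and -0.91 ± 0.19 (adjusted p = 1.47e-05).

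Sostdc1 (Entrez 66042, chr12:36314169-36318452), a secreted antagonist of BMP and Wnt signalling, was low in all regions. Medians in the other libraries were 0.441 and 0.328 cpm in PFC, 1.03 and 0.767 cpm in STR, and 2.01 and 1.42 cpm in SN of Nestin-Cre and AAV-Cre mice. Its SN levels, 0.553 to 4.23 cpm over both models, overlapped those of STR (0.231 to 4.18 cpm). When the 9 were left out, Sostdc1 passed as higher in SN than in STR, at 0.72 ± 0.23 (adjusted p = 0.00385) in Nestin-Cre and 0.54 ± 0.20 (adjusted p = 0.0104) in AAV-Cre mice. With all libraries the same comparison gave -0.66 ± 0.49 (adjusted p = 0.205) and -1.63 ± 0.61 (adjusted p = 0.0122), so the direction turned.

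The folate receptor gene Folr1 (Entrez 14275, chr7:101858331-101870788), whose product carries folate across the plexus epithelium, had medians of 0.235 and 0.190 cpm in PFC, 0.554 and 1.04 cpm in STR, and 1.07 and 0.586 cpm in SN of Nestin-Cre and AAV-Cre mice. SN of the Nestin-Cre mice M4545 (4.30 cpm) and M4394 (2.83 cpm), both WT, held its highest levels outside the 9 libraries, and the same 2 libraries had 232 and 228 cpm of Ttr. Folr1 was higher in STR than in PFC at 2.75 ± 0.63 (adjusted p = 0.000103) and 4.95 ± 0.86 (adjusted p = 5.27e-07), and at 1.498 ± 0.41 and 2.10 ± 0.25 without the 9 libraries.

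The water channel gene Aqp1 (Entrez 11826, chr6:55336299-55348555) had its highest median in PFC in both models outside the 9 libraries. Its lowest, median and highest levels were 0.357, 2.38 and 6.54 cpm in Nestin-Cre PFC and 0.164, 1.18 and 8.54 cpm in AAV-Cre PFC. They were 0.150, 0.545 and 1.198 cpm and 0.328, 0.637 and 1.48 cpm in STR, and 0, 0.334 and 1.38 cpm and 0.102, 0.369 and 0.946 cpm in SN. PFC libraries spread 52.1-fold over both models and overlapped those of the other regions at their lower end. With all libraries Aqp1 was at -0.64 ± 0.50 (adjusted p = 0.248) in Nestin-Cre STR against PFC and higher in AAV-Cre STR, at 1.64 ± 0.67 (adjusted p = 0.0236). Leaving the 9 out, it was lower in STR in both models, at -2.15 ± 0.31 (adjusted p = 1.39e-08) and -1.74 ± 0.34 (adjusted p = 1.05e-05). With the mouse as a replicate block and all libraries the calls of Aqp1 also moved, to -1.52 ± 0.45 (adjusted p = 0.00245) in Nestin-Cre and 0.73 ± 0.61 (adjusted p = 0.271) in AAV-Cre mice. In SN, Aqp1 was lower than in PFC in Nestin-Cre mice, at -2.71 ± 0.55 (adjusted p = 1.54e-05). For AAV-Cre mice the SN value of Aqp1 was -0.33 ± 0.73 (adjusted p = 0.684), -2.74 ± 0.33 (adjusted p = 7.60e-11) without the 9 libraries and -1.91 ± 0.71 (adjusted p = 0.0129) with the mouse as a replicate block.

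Clic6 (Entrez 209195, chr16:92498147-92541241) belongs to the family of intracellular chloride channels. It was the steadiest of the 10 genes in STR, at 17.4 to 29.6 cpm in Nestin-Cre and 18.5 to 35.6 cpm in AAV-Cre libraries other than the 9, a 2.05-fold range. The PFC held 0.278, 1.15 and 3.56 cpm (lowest, median and highest) in Nestin-Cre and 1.65, 3.58 and 8.27 cpm in AAV-Cre mice, and the SN 2.36, 7.10 and 14.96 cpm and 6.38, 10.6 and 19.7 cpm. STR lay above PFC without overlap. Clic6 was higher in STR than in PFC at 4.39 ± 0.28 (adjusted p = 1.09e-20) in Nestin-Cre and 3.44 ± 0.40 (adjusted p = 7.62e-12) in AAV-Cre mice, and at 4.11 ± 0.22 and 2.70 ± 0.16 without the 9 libraries. In SN, Clic6 was lower than in STR in both models, at -2.12 ± 0.23 and -1.40 ± 0.35, and -1.79 ± 0.18 and -1.29 ± 0.14 without them.

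Kcne2 (Entrez 246133, chr16:92292389-92298133), a subunit that modifies potassium channels, was the least detected gene. Outside the 9 libraries its highest levels were 0.262 cpm in PFC, 1.42 cpm in STR and 2.44 cpm in SN. The SN libraries of M4545 (2.44 cpm) and M4579 (1.84 cpm) and the STR library of M4326 (1.42 cpm) held the most Kcne2 and also the most or next most Ttr of their region and model (232, 260 and 252 cpm). Kcne2 was lower in Nestin-Cre SN than in STR at -1.57 ± 0.61 (adjusted p = 0.0166), and without M4566 the value was 0.36 ± 0.33 (adjusted p = 0.305). With the mouse as a replicate block it was -0.18 ± 0.51 (adjusted p = 0.743).

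The inward rectifier potassium channel gene Kcnj13 (Entrez 100040591, chr1:87384577-87394729) had several of its high libraries in SN of Nestin-Cre mice. It has no exon base in common with another gene of the table, but lies within Gigyf2 on the opposite strand. Whether reads were counted by strand is not given in the sources used here, so reads of the 2 genes may not be told apart fully. In the other SN libraries its lowest, median and highest levels were 0.213, 3.68 and 26.6 cpm in Nestin-Cre and 0.202, 1.17 and 8.70 cpm in AAV-Cre mice. In PFC they were 0.995, 1.63 and 3.08 cpm and 0.667, 1.62 and 2.63 cpm, and in STR 0.0647, 0.391 and 1.75 cpm and 0.170, 0.532 and 3.37 cpm. The highest SN library was that of M4393 (HOM, 26.6 cpm), followed by M4394 (WT, 17.9), M4329 (WT, 16.2) and M4578 (HET, 15.1). Ttr in these libraries was 2.84, 228, 1.36 and 39.1 cpm, so M4393 and M4329 had high Kcnj13 beside 2 of the 3 lowest Ttr values of Nestin-Cre SN.

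With all libraries Kcnj13 did not pass between STR and PFC of Nestin-Cre mice, at 0.76 ± 0.71 (adjusted p = 0.331), and was higher in STR of AAV-Cre mice, at 2.73 ± 0.69 (adjusted p = 0.000327). In the remaining libraries Kcnj13 was lower in STR than in PFC in both models, at -1.65 ± 0.46 (adjusted p = 0.00112) and -0.98 ± 0.39 (adjusted p = 0.0213). Between SN and STR it turned likewise, from -1.48 ± 0.66 (adjusted p = 0.0331) to 1.08 ± 0.38 (adjusted p = 0.00787) in AAV-Cre mice. In Nestin-Cre mice the SN to STR value of Kcnj13 was 1.17 ± 0.67 (adjusted p = 0.103), and 3.46 ± 0.44 (adjusted p = 3.46e-10) without M4566. With the mouse as a replicate block this value was 2.35 ± 0.59 (adjusted p = 0.000442). Between SN and PFC of AAV-Cre mice Kcnj13 passed narrowly at 1.24 ± 0.71 (adjusted p = 0.0983), and not without the 9 libraries (0.10 ± 0.33, adjusted p = 0.784) or with the replicate block (0.51 ± 0.69, adjusted p = 0.489).

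Tmem72 (Entrez 319776, chr6:116692725-116716758), which encodes a membrane protein, had medians of 0.111 and 0.0826 cpm in PFC, 0.343 and 0.738 cpm in STR, and 0.468 and 0.579 cpm in SN of Nestin-Cre and AAV-Cre mice. Its highest levels outside the 9 libraries were in AAV-Cre SN, 3.85 cpm in M3611 and 3.71 cpm in M3587. All regions overlapped. Tmem72 in AAV-Cre SN against STR was at -1.81 ± 0.67 (adjusted p = 0.0115), and at 0.38 ± 0.35 (adjusted p = 0.302) without the 9 libraries.

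**Figure D3:**
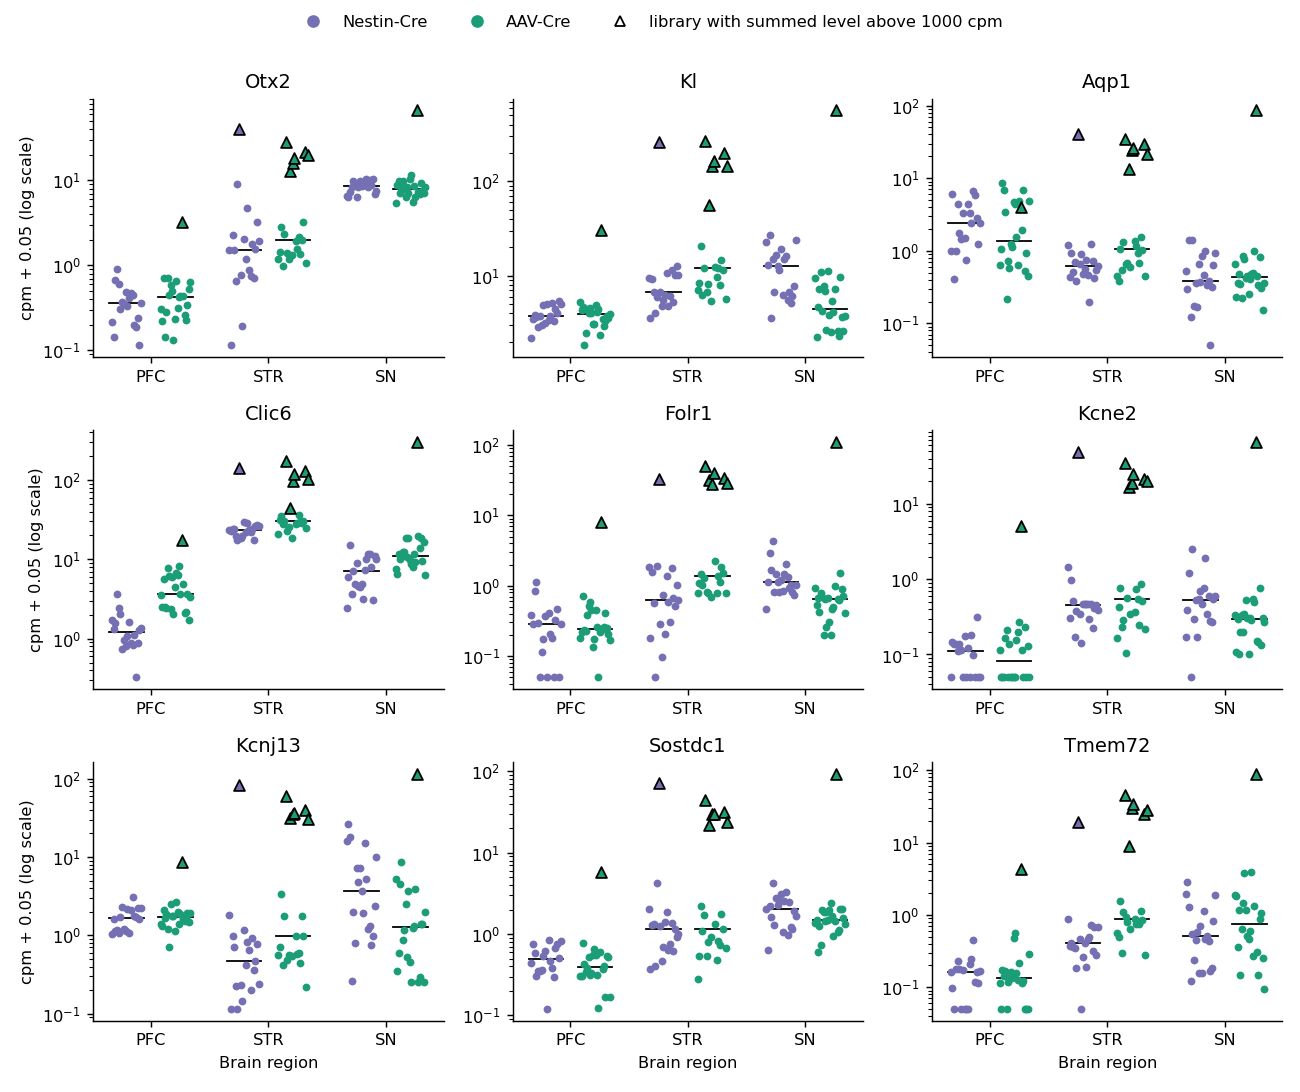
Levels of 9 of the genes in each library, as cpm + 0.05 on logarithmic axes, by region for Nestin-Cre (violet) and AAV-Cre mice (green), with horizontal lines at the medians of all libraries of a model and region. Triangles mark the 9 libraries with a summed level above 1000 cpm, and Otx2 in SN lies between 5.43 and 11.5 cpm in all other libraries.

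Taken by comparison, 8 of the 10 genes passed between STR and PFC of Nestin-Cre mice, all higher in STR, where 76.8% of all 15403 genes passed. The median log2 fold change was 2.96 over the 10 genes and 0.04 over all genes. Without M4566, 10 passed, of which 2 (Aqp1 and Kcnj13) were lower in STR, beside 76.5% of all genes, and the medians were 1.61 and 0.04. Between SN and PFC 10 of 10 passed, 9 higher and Aqp1 lower in SN, beside 84.5% of all genes, with medians of 2.24 and 0.01, and the same 10 passed without M4566 (84.5%), with medians of 2.26 and 0.02. Between SN and STR 5 of 10 passed beside 84.3% of all genes, Otx2 higher and Aqp1, Clic6, Kcne2 and Ttr lower in SN, with medians of -0.61 and 0.00. Without M4566, 7 passed beside 84.4%, of these only Clic6 was lower in SN, and the median over the 10 genes turned to 0.67, against 0.01 over all genes.

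In AAV-Cre mice 10 of 10 genes passed between STR and PFC, all higher in STR, beside 79.6% of all 15442 genes, with medians of 4.05 and 0.02. Once the 9 libraries were left out, Kcne2 fell below the filter, and 9 of 9 passed beside 77.6%, with Aqp1 and Kcnj13 lower and medians of 2.10 and 0.01. Between SN and PFC 9 of 10 passed beside 84.6%, all higher, with medians of 2.59 and -0.00. Without the 9 libraries 8 of 9 passed beside 84.7%, Aqp1 among them as lower in SN, with medians of 1.41 and 0.02. Between SN and STR 9 of 10 passed beside 86.1%, all lower in SN, with medians of -1.85 and 0.00. Without the 9 libraries, 8 of 9 passed beside 85.4%, of which Otx2, Kcnj13 and Sostdc1 were higher and Ttr, Clic6, Folr1, Aqp1 and Kl lower in SN, with medians of -0.91 and 0.04. The size of the medians, and for STR the direction of several genes, thus rested in part on the 9 libraries.

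**Figure D4:**
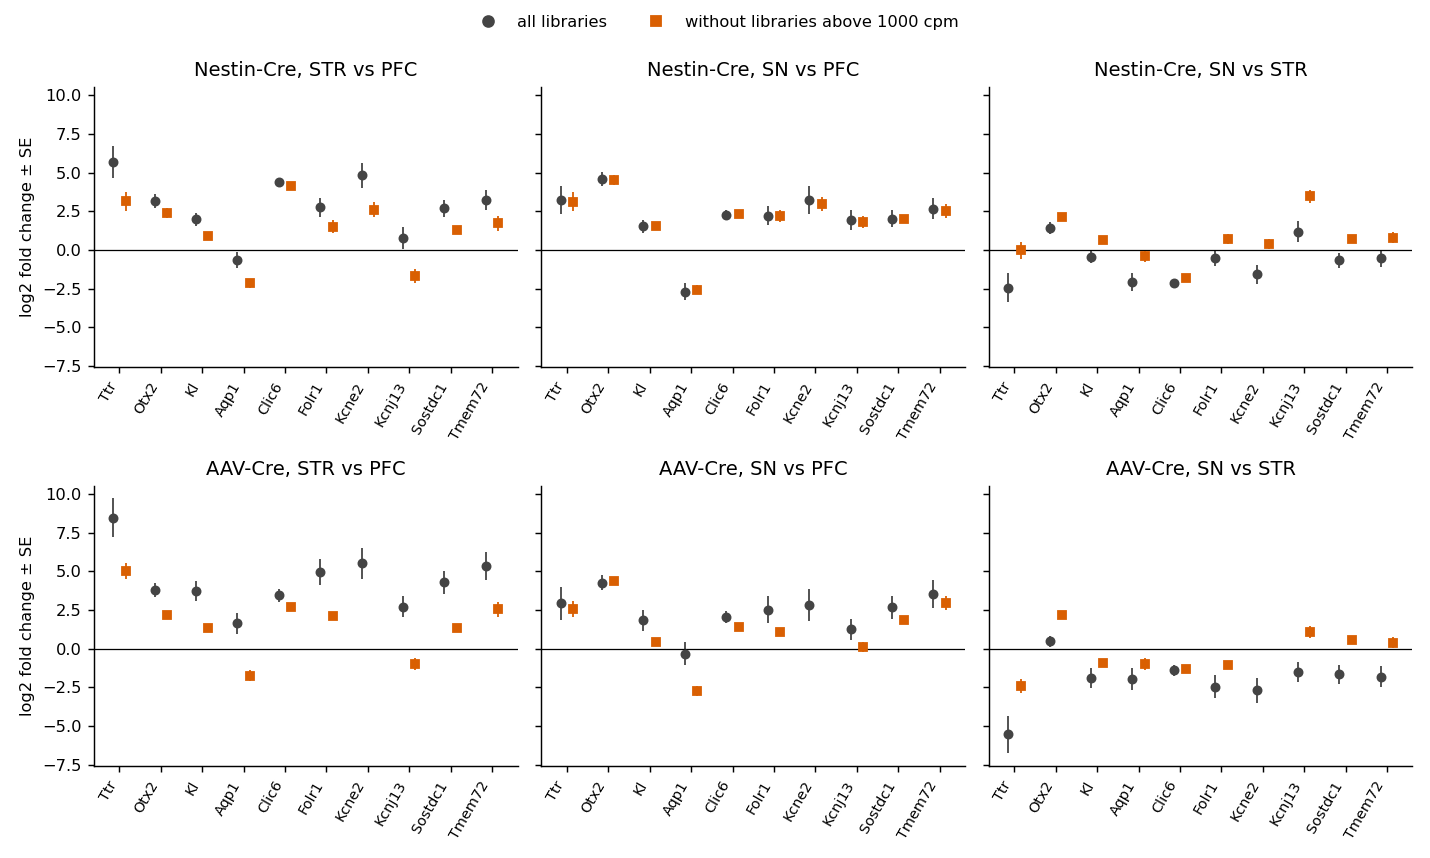
Log2 fold changes between regions with standard errors for the 10 genes in Nestin-Cre (top) and AAV-Cre mice (bottom), with all libraries (grey circles) and without the 9 libraries whose summed level exceeds 1000 cpm (orange squares). Kcnj13 in AAV-Cre STR against PFC moves from 2.73 to -0.98 and Otx2 in SN against PFC stays near 4.27 and 4.35.

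The other 28 choroid plexus genes were tested in the same fits. Between STR and PFC, 18 of 26 tested were higher and 5 lower in STR of Nestin-Cre mice, beside 6320 of all genes higher and 5503 lower (76.8% called). In AAV-Cre mice 23 of 28 were higher and 1 lower, beside 6424 and 5872 of all genes (79.6%). For STR against PFC without the 9 libraries, 14 of 25 were higher and 7 lower (6270 and 5508 of all genes, 76.5%), and 18 of 25 higher and 6 lower (6115 and 5798, 77.6%). Between SN and PFC 20 of 26 were higher and 2 lower in Nestin-Cre mice (6549 and 6471 of all genes, 84.5%), and 20 of 28 higher and 1 lower in AAV-Cre mice (6429 and 6634, 84.6%). The counts without the 9 libraries were 21 of 25 higher and 2 lower (6641 and 6369, 84.5%), and 15 of 25 higher and 6 lower (6705 and 6305, 84.7%). Between SN and STR, 11 of 26 were higher and 5 lower in SN of Nestin-Cre mice (6466 and 6516, 84.3%), and 18 of 25 higher and 4 lower without M4566 (6592 and 6394, 84.4%). In AAV-Cre mice 7 of 28 were higher and 14 lower in SN than in STR (6660 and 6639, 86.1%), and 16 of 25 higher and 6 lower without the 9 libraries (6928 and 6189, 85.4%). The median log2 fold change of the tested list genes in this last comparison was -0.54 with all libraries and 0.69 without the 9, against 0.00 and 0.04 over all genes.

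The effect of the Gdnf genotype was tested within each model and region by edgeR's quasi-likelihood test, and none of the 10 genes passed in any of the 12 comparisons with WT. In Nestin-Cre PFC 0 of 5 genes tested passed in HET (0% of all 14386 genes) and 0 of 5 in HOM (0.25%). At an unadjusted p under 0.05 were 2 and 1 in HET and HOM, beside 1398 and 1446 of all genes. DESeq2 called 1 and 1, beside 117 and 230 of 20022 genes, and gave no adjusted p to 2 and 5 of the 10. In Nestin-Cre STR 0 of 8 passed in HET (0% of 14494) and 0 of 8 in HOM (0%). At an unadjusted p under 0.05 were 8 and 0, beside 2513 and 670 of all genes. DESeq2 called 1 (Otx2) and 0, beside 529 and 1 of 20120 genes, with no adjusted p for 3 in HET. In Nestin-Cre SN 0 of 9 passed in HET (0% of 14873) and in HOM (0%), and none by DESeq2. An unadjusted p under 0.05 was reached by 0 and 0, beside 1337 and 608 of all genes. In AAV-Cre PFC 0 of 5 passed in HET (0% of 14628) and in HOM (0.0137%). At an unadjusted p under 0.05 were 1 and 0, beside 1806 and 2074 of all genes. DESeq2 called 0 and 0, and gave no adjusted p to any of the 10 in HOM. In AAV-Cre STR 0 of 10 passed in HET (0% of 14655) and in HOM (0%), and none by DESeq2. An unadjusted p under 0.05 was reached by 0 and 0, beside 251 and 671 of all genes. In AAV-Cre SN 0 of 7 passed in HET (0% of 14813) and in HOM (0%), and none by DESeq2. At an unadjusted p under 0.05 were 7 and 0, beside 694 and 1109 of all genes. Of the 28 other choroid plexus genes 0 passed by edgeR in these comparisons, and DESeq2 called 1, in Nestin-Cre STR HET. HET and HOM of a region share their WT libraries.

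The HET comparisons in which every tested gene of the set described here had an unadjusted p under 0.05 each held 1 of the 9 libraries. Over all genes their counts under 0.05 differed, at 2513 of 14494 in Nestin-Cre STR and 694 of 14813 in AAV-Cre SN. In Nestin-Cre STR, Ttr had lowest, median and highest levels of 27.2, 71.8 and 252 cpm in WT, 6.90, 45.0 and 18404 cpm in HET and 8.09, 17.0 and 44.5 cpm in HOM libraries. The HET values apart from M4566 ended at 144 cpm, within the WT range. The log2 fold change of Ttr in HET was 4.601 ± 1.54 (n = 7 and 6, adjusted p = 0.193), and -0.98 ± 0.60 (adjusted p = 0.409) without M4566. The median over the 8 genes tested was 2.92 against 0.01 over all genes, and 0.16 over the 6 tested without M4566. In that fit 0 of 6 passed by edgeR (0% of 14460) and 0 had an unadjusted p under 0.05. Of all 14460 genes 2223 still had one, so the low p values over all genes largely remained without M4566. Sostdc1 was at 3.37 ± 1.00 (adjusted p = 0.175) and Kcnj13 at 4.06 ± 1.34 (adjusted p = 0.189) with M4566.

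In Nestin-Cre STR of HOM mice, Ttr lay below the WT mean in all 6 libraries, and the highest HOM library, that of M4575, had 44.5 cpm, within the WT range of 27.2 to 252 cpm. The model gave -2.30 ± 1.43 (n = 6 and 6, adjusted p = 0.784). An exact two-sided permutation test on log2(cpm + 0.5) gave a difference of -2.13 with p = 0.0108, or 0.13 after adjustment over the 12 comparisons with WT. The other 11 comparisons had exact permutation p values of 0.221 or more. Without M4566, 0 of 6 genes passed by edgeR in HOM (0%), and 1, Ttr at -2.32 ± 0.63 (adjusted p = 0.763), had an unadjusted p under 0.05. So had 683 of all 14460 genes. DESeq2 was not run without these libraries.

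In AAV-Cre SN, Ttr had lowest, median and highest levels of 1.38, 7.52 and 57.0 cpm in WT, 2.17, 14.3 and 20041 cpm in HET and 1.45, 5.11 and 23.6 cpm in HOM libraries, and all 3 genotypes overlapped. The HET value of Ttr was 7.14 ± 1.75 (n = 7 and 7, adjusted p = 0.946), and 1.21 ± 0.85 (adjusted p = 0.999) without M3676. The median over the 7 genes tested was 3.65 against 0.00 over all genes, and 0.05 without M3676. In that fit 0 of 7 passed by edgeR in HET (0% of 14782) and in HOM (0%). An unadjusted p under 0.05 was reached by 0 in each, beside 521 and 1226 of all genes. HOM had a value of -1.60 ± 1.51 (n = 8 and 7, adjusted p = 0.809).

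In AAV-Cre PFC the levels of Ttr were 0.909, 2.01 and 6.76 cpm in WT, 1.60, 2.03 and 1145 cpm in HET and 0.244, 1.92 and 9.08 cpm in HOM libraries. Its HET value was 5.71 ± 1.37 (n = 7 and 7, adjusted p = 0.34), and -0.20 ± 0.58 without M3676. In that fit 0 of 5 genes passed by edgeR in HET (0% of 14615) and in HOM (0.0137%). At an unadjusted p under 0.05 were 0 and 1 of them, beside 1255 and 2106 of all genes.

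AAV-Cre STR, the injected region, had 2 of the 9 libraries in each genotype. Ttr had lowest, median and highest levels of 71.9, 194 and 7671 cpm in WT, 35.3, 108 and 6563 cpm in HET and 19.6, 85.4 and 6157 cpm in HOM libraries. The genotypes overlapped, and the log2 fold changes of Ttr were -0.23 ± 1.44 (n = 7 and 7, adjusted p = 1) in HET and -0.32 ± 1.44 (n = 7 and 7, adjusted p = 0.9995) in HOM, and -0.81 ± 0.55 and -1.0005 ± 0.55 without the 6 libraries. The medians over the 10 genes were -0.12 and -0.18 against 0.00 and -0.00 over all genes. Without the 6 libraries they were -0.37 and -0.56 over 9 genes, with 0 of 9 passing by edgeR in HET (0% of 14460) and in HOM (0%). An unadjusted p under 0.05 was reached by 0 in each, beside 253 and 716 of all genes. In Nestin-Cre SN the levels of Ttr were 1.36, 12.0 and 232 cpm in WT, 4.88, 58.1 and 260 cpm in HET and 2.79, 18.6 and 77.2 cpm in HOM libraries, with full overlap, and values of -0.03 ± 1.00 (adjusted p = 0.991) and -1.64 ± 1.08 (adjusted p = 0.892).

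In Nestin-Cre PFC, which held none of the 9 libraries, HET and WT did not overlap for Clic6, a comparison singled out after its values were seen. Its lowest, median and highest levels were 1.25, 1.62 and 3.56 cpm in WT and 0.694, 0.832 and 1.05 cpm in HET libraries. The HOM libraries had 0.278 cpm (M4580), 0.757 (M4568), 1.05 (M4569) and 1.52 cpm (M4393). All 6 HET libraries lay below all 8 WT libraries, and M4393 alone of the HOM libraries reached the WT range. How many of all genes had no overlap here is not given, so this does not set Clic6 apart from them. The WT libraries include M4575 (1.58 cpm), which is labelled HOM in STR and SN. The log2 fold changes of Clic6 were -1.15 ± 0.28 (n = 6 and 8, adjusted p = 0.147) in HET and -1.12 ± 0.34 (n = 4 and 8, adjusted p = 0.213) in HOM, and neither passed. DESeq2 called both, at adjusted p values of 0.0300 and 0.0993, and without M4580 the edgeR value for Clic6 in HET was -1.15 ± 0.25 (adjusted p = 0.081). In AAV-Cre PFC, Clic6 was at 2.32, 5.57 and 8.27 cpm in WT, 2.09, 3.58 and 17.3 cpm in HET and 1.65, 2.96 and 6.37 cpm in HOM libraries, with values of 0.17 ± 0.39 and -0.66 ± 0.39 and overlap of all genotypes.

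Whether genotype effects differed between regions was tested by the interaction in 1 fit per model. By edgeR, 0 of the 10 genes passed in Nestin-Cre mice (0% of 15403). At an unadjusted p under 0.05 were 10 of 10, beside 673 of all genes. DESeq2 called 1, Sostdc1, beside 39 of 21165 genes. With the mouse as a replicate block, 3 of the 10 had an unadjusted p under 0.05, beside 717 of all genes. Without M4566, 0 of the 10 passed (0%) and 1 had an unadjusted p under 0.05, beside 546 of all 15392 genes. In AAV-Cre mice 0 of 10 passed (0.00648% of 15442), at adjusted p values of 0.575 or more, and 0 were called by DESeq2. In the fit without the 9 libraries 0 of 9 passed (0%). In Nestin-Cre mice fewer of the 10 genes thus had a low unadjusted p for the interaction without M4566. Fewer of all genes did too (546 against 673). The change in these counts was not tested, and no AAV-Cre fit left out M3676 alone.

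WT mice of the 2 models were compared within each region. The models differ in age, in the injection and in Cre driver, and these cannot be told apart in this comparison. In STR 10 of 10 genes passed, all higher in AAV-Cre mice, beside 61.9% of all 14449 genes, with medians of 3.51 and 0.02. This rested on M3585 and M3588. Without both, 2 of 8 genes tested passed beside 56.7%, Clic6 at 0.37 ± 0.10 (adjusted p = 0.00881) and Kl at 0.67 ± 0.27 (adjusted p = 0.0538). Ttr in WT STR was then at 27.2, 71.8 and 252 cpm (lowest, median and highest, n = 6) in Nestin-Cre and 71.9, 173 and 251 cpm (n = 5) in AAV-Cre mice, at 0.49 ± 0.51 (adjusted p = 0.45). The 2 models overlapped for Ttr once those libraries were left out.

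In PFC 1 of 5 genes tested passed beside 46.9% of all genes. Clic6 was at 1.25, 1.62 and 3.56 cpm in Nestin-Cre and 2.32, 5.57 and 8.27 cpm in AAV-Cre WT mice, a log2 fold change of 1.45 ± 0.28 (n = 7 and 8, adjusted p = 0.000874) with some overlap. In SN 4 of 8 genes tested passed beside 62.4% of all genes. Clic6 was again higher in AAV-Cre mice, at 10.5, 11.7 and 19.7 cpm against 2.36, 5.37 and 14.96 cpm (1.05 ± 0.36, adjusted p = 0.0208). Folr1 at -1.73 ± 0.48 (adjusted p = 0.00672), Kl at -1.38 ± 0.46 (adjusted p = 0.0208) and Sostdc1 at -0.80 ± 0.36 (adjusted p = 0.0733) were lower in AAV-Cre SN. Clic6 was thus higher in the older, injected WT mice in all 3 regions, and the shares of the 10 genes that passed in PFC and SN were below those of all genes. Of the 28 other choroid plexus genes, 6 of 19 tested were higher and 4 lower in PFC, where 46.9% of all genes were called. In STR 18 of 24 were higher and 0 lower (61.9% of all genes called). In SN 3 of 24 were higher and 10 lower (62.4%). Without M3585 and M3588 these counts in STR were 8 of 22 higher and 3 lower (56.7%).

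Of those genes, Trpv4 (1.03), Msx1 (0.84), Col8a2 (0.57), Abca4 (0.46), Cgnl1 (0.43) and Ace (0.37) were higher in AAV-Cre PFC, by log2 fold change, and Igf2 (-0.46), Cldn1 (-0.32), Sulf1 (-0.30) and Enpp2 (-0.18) lower. In SN, Lmx1a (0.71), Trpv4 (0.63) and Ace (0.58) were higher in AAV-Cre mice. The genes lower in AAV-Cre SN were 1500015O10Rik (-2.14), Slc13a4 (-1.73), Igf2 (-1.61), Igfbp2 (-1.60), Enpp2 (-0.89), Car14 (-0.75), Rdh5 (-0.67), Cldn2 (-0.50), Mfrp (-0.41) and Cldn1 (-0.39). Trpv4 and Ace were thus higher and Igf2, Enpp2 and Cldn1 lower in both regions. Whether genes of the list shared a direction more often than all genes was not tested. Enpp2, at a median of 313 cpm outside the 9 libraries, was not confined to them. The tissue from which the reads of these genes came was not tested.

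The genes whose levels went most with those of Ttr were found by Pearson's r over all libraries after subtracting the mean of each of the 18 groups from log2(cpm + 0.5), among 15675 genes. The 10 highest were Prr32 (0.848), Kcne2 (0.844), Slc4a5 (0.844), F5 (0.843), Folr1 (0.840), Calml4 (0.809), Cldn2 (0.787), 1500015O10Rik (0.785), Krt8 (0.779) and Slc16a8 (0.776). Of these, 2 belong to the 10 genes and 6 to the list of other choroid plexus genes. Over the 112 libraries left when the 9 are taken out, Prr32 (0.669), Kcne2 (0.626), Slc4a5 (0.586), F5 (0.579), Folr1 (0.551) and Calml4 (0.511) were still the first 6 in the same order, while Cldn2, 1500015O10Rik, Krt8 and Slc16a8 moved to ranks 26, 21, 11 and 24. For Otx2 the 5 highest over all libraries were Cldn2 (0.911), Krt18 (0.896), Prlr (0.894), Sostdc1 (0.893) and Folr1 (0.884), and over 112 libraries these r values were 0.437 to 0.606, at ranks 156, 137, 44, 284 and 199. The libraries share mice, regions and depth, so the values describe this series and carry no test.

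Among the 10 genes themselves, r with Ttr over all libraries was 0.670 (Kcnj13) to 0.844 (Kcne2). Without the 9 libraries it was 0.127 (Otx2) to 0.626 (Kcne2). By region in those libraries, Kcnj13 had 0.828 with Ttr in STR (33 libraries), 0.0402 in SN (40) and 0.0258 in PFC (39). Kl had 0.747, 0.271 and 0.0743 in STR, SN and PFC. In SN, r with Ttr was 0.755 for Kcne2, 0.668 for Folr1 and 0.633 for Aqp1. Differences of r between regions were not tested.

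Promoters of the 10 genes were searched for TAATCC, the core that homeodomain proteins of the OTX type bind, because Otx2 is one of the genes. Windows from 250 bases before to 50 bases after annotated starts were taken from RefSeq (GRCm38.p6), where 10 windows of 6 genes (Otx2, Kl, Aqp1, Kcne2, Kcnj13 and Tmem72) were present and Ttr, Clic6, Folr1 and Sostdc1 were not matched. The letters were searched on both strands, and 1 of the 10 windows held them, against 2320 of 32851 windows in the table (7.06%). The match was in a start of Otx2 itself, on chromosome 14 (minus strand), within the 30 bases at chr14:48665303-48665332. The first base of the match lay 211 bases before the start. The stretch around it is printed 5′ to 3′ on the strand of the gene, with the reverse complement of the letters in capitals.
Otx2 promoter match: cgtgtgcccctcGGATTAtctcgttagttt
A match of 6 letters describes the sequence and does not show a binding site.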

How the data were processed

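The counts are whole numbers in the table deposited by the authors, who made them with bcl2fastq 2.20.0.422, STAR 2.5.2b on mm10 and featureCounts 1.5.1 over exons, from single-end reads of 75 bases of stranded libraries primed on poly(A). The members and marker lists were chosen with earlier results of these data known.

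Tests used edgeR 4.0.16 in R 4.3.3: TMM scaling, genes above 1 cpm in 3 or more libraries of the fit, quasi-likelihood F tests with the trended dispersion, two-sided, Benjamini-Hochberg over all genes of a fit, called under 0.1. Genotypes were fitted per model and region, regions and interactions per model with genotype in the fit, and models in WT per region. The main fits of regions and interactions held no term for the mouse, so libraries of the same animal entered as separate. Fits with the mouse as a replicate block were run as alternatives. Standard errors were obtained by dividing the log2 fold change by the root of its F value. DESeq2 1.42.0 was the other tool. Levels are cpm on total counts. Tables and figures were made with python 3.11.15, numpy 2.4.6, pandas 2.3.3, scipy 1.17.1 and matplotlib 3.10.9, and the code was tested on simulated data.

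Libraries with the same mouse number are from 1 animal per the labels. With group means removed, the median r between regions of a mouse was 0.171 to 0.326, against -0.0188 to -0.00662 for different mice.

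Named genes are the 10 members, Gdnf, the other choroid plexus genes that were called and the 5 of them with the highest mean, the genes most like Ttr (10) and Otx2 (5), the most abundant gene of each marker list, libraries found by Dixon's test, and TAATCC in promoters. Of the choroid plexus genes called between regions or models, counts and single examples are given.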

Additional observations from a re-analysis of the deposited data

Results flagged for a closer look

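Dixon's test on log2(cpm + 0.5) was run for each of the 10 genes in each of the 18 groups, and it set apart 1 library in 32 of 180 cases, 31 as the highest and 1 as the lowest. By chance about 1 in 20 groups would be set apart. The 10 genes rise in the same libraries and several have few reads, so the cases are not independent. The difference from that share was not tested. Of the 32, 26 were in the 9 libraries with a summed level above 1000 cpm. Since the 10 genes themselves set those libraries apart, the 26 are not a finding of their own.

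In Nestin-Cre STR HET, M4566 was set apart for Ttr (18404 cpm), Kl (263), Aqp1 (40.28), Clic6 (139.6), Folr1 (33.22), Kcne2 (48.49), Kcnj13 (83.06), Sostdc1 (71.54) and Tmem72 (19.02), and Otx2 was the only gene for which it was not. In AAV-Cre SN HET, M3676 was set apart for Otx2 (66.88 cpm), Kl (565.4), Aqp1 (86.03), Clic6 (298.2), Folr1 (109.7), Kcne2 (65.98), Kcnj13 (114.2), Sostdc1 (92.26) and Tmem72 (87.99). In AAV-Cre PFC HET the same mouse was set apart for Ttr (1145 cpm), Otx2 (3.21), Kl (30.2), Folr1 (7.878), Kcne2 (5.033), Sostdc1 (5.69) and Tmem72 (4.304). In AAV-Cre STR WT, M3585 was set apart for Clic6 (171.6 cpm).

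The other 6 cases were Folr1 of M4394 in Nestin-Cre PFC WT (1.072 cpm), Ttr of M4606 in Nestin-Cre PFC HET (38.58 cpm), Tmem72 of M4580 in Nestin-Cre PFC HOM (0.06957 cpm, 1 read against 0 in the other 3), Kcne2 of M4579 in Nestin-Cre SN HET (1.845 cpm), Tmem72 of M3607 in AAV-Cre PFC HOM (0.4278 cpm), and, as the lowest of its group, Sostdc1 of M4569 in Nestin-Cre PFC HOM (0.06971 cpm, 1 read).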

How the results depend on the processing

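The groups hold 4 to 8 mice, most of the 10 genes are near the limit of counting outside the 9 libraries, and 5 to 10 of them passed the filter in a fit. Model goes with age, injection and cohort. The regions were dissected by hand, and the libraries do not tell what tissue a piece held. Of the counts of genes called under changed settings 189 stayed within 1.5 times and 23 moved by more. Among single genes 1604 values kept their call, 83 gained it, 24 lost it, and 16 turned in direction and were called in at least 1 of the 2 fits. A value that turned but was called in neither fit is counted among those that kept their call. The cause was not tested.

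Brackets after a count give the number of all tested genes called. With edgeR's likelihood ratio test the number of the 10 genes called went from 0 to 1 in Nestin-Cre PFC HET (415 of 14386), STR HOM (277 of 14494) and SN HOM (119 of 14873). It also went from 0 to 1 in AAV-Cre PFC HOM (429 of 14628), STR HOM (175 of 14655) and SN HOM (218 of 14813). It went from 0 to 2 in Nestin-Cre PFC HOM (310 of 14386) and AAV-Cre PFC HET (248 of 14628), from 0 to 8 in Nestin-Cre STR HET (1242 of 14494) and from 0 to 7 in AAV-Cre SN HET (324 of 14813). It went from 0 to 10 in the Nestin-Cre (613 of 15403) and AAV-Cre (575 of 15442) interactions, from 5 to 10 in Nestin-Cre SN against STR (12419 of 15403), and from 1 to 2 between models in WT PFC (5987 of 14461). DESeq2 called 1 in Nestin-Cre PFC HET (117 of 20022), PFC HOM (230 of 20022), STR HET (529 of 20120) and the interaction (39 of 21165). With only the 2 genotypes compared, 1 was called in Nestin-Cre PFC HET (39 of 14287). With the 3 regions fitted together, 9 were called in Nestin-Cre STR HET (1082 of 15403). With WT libraries only, 5 were called in AAV-Cre SN against PFC (11142 of 15043), and 9 with all libraries. Without the 9 libraries, a choice made after the values were seen, 2 were called between models in WT STR (8125 of 14335), and 10 with all libraries. Nestin-Cre PFC HET gave 0 to 1 when single HOM mice were dropped, with 1 (Clic6) without M4580 (54 of 14366).

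The values that turned in direction and were called in at least 1 of the 2 fits were as follows (log2 fold change, value with all libraries by edgeR in brackets). Genotype values that turned were called in neither fit and are not listed. With DESeq2 in Nestin-Cre SN against STR, Ttr was 0.0152 [-2.43], Kcne2 0.43 [-1.57] and Sostdc1 0.76 [-0.66]. With WT libraries only, Kcne2 was 0.037 and Sostdc1 0.73. Without the 9 libraries, Kl was 0.64 [-0.43], Folr1 0.71 [-0.54], Kcne2 0.36, Sostdc1 0.72 and Tmem72 0.79 [-0.55]. Kcnj13 was -1.65 [0.76] in Nestin-Cre and -0.98 [2.73] in AAV-Cre STR against PFC, where Aqp1 was -1.74 [1.64]. In AAV-Cre SN against STR, Kcnj13 was 1.08 [-1.48], Sostdc1 0.54 [-1.63] and Tmem72 0.38 [-1.81].

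With the mouse as a replicate block, 9, 10 and 4 genes were called in Nestin-Cre STR against PFC, SN against PFC and SN against STR (12344, 13312 and 13335 of 15403). In AAV-Cre mice 9, 9 and 10 were called (12555, 13258 and 13522 of 15442), and in both interactions 0 of the 10 and 0 of all genes. Robust quasi-likelihood, DESeq2's size factors, no filter, an adjusted p under 0.05 and leaving out M4575 moved no count by more than 1.5 times.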
